A study of Mus musculus with 4 samples.

Results

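The renin-angiotensin-aldosterone system was described across 4 mouse heart arrays through 9 genes, Agt, Ren1, Ace, Agtr1a, Agtr1b, Agtr2, Mas1, Nr3c2 and Hsd11b2. Their probes were those that the array names by a RefSeq or Ensembl transcript of the gene, which gave 10 probes for 9 of the 21658 genes that could be named on the array, 2 of them for Mas1. Each array carried pooled heart RNA of male C57BL/6J mice in 1 of 4 conditions, a sham operation or transverse aortic constriction (TAC), each 2 weeks or 8 weeks before collection. TAC narrows the aorta and puts the left ventricle under pressure overload, and the study took 2 weeks as its hypertrophic phase and 8 weeks as its heart failure phase. The labels give an age of 10 weeks for both groups at 2 weeks and of 16 weeks for both groups at 8 weeks, while the methods state another age at surgery. No other agent or allele was named for any of the 4 groups, and with 1 pool per group no spread between mice could be measured, so each change below is the ratio of 2 pools and carries no p-value.

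The system controls blood pressure and salt balance and also acts within the heart. Renin cuts angiotensinogen to angiotensin I, angiotensin-converting enzyme turns this into angiotensin II, and angiotensin II acts on type 1 receptors, which drive constriction, growth and fibrosis, and on type 2 receptors, which often oppose them. A shortened angiotensin peptide acts on the Mas receptor and is known to counter the type 1 receptor. Aldosterone acts on the mineralocorticoid receptor, and Hsd11b2 protects this receptor from glucocorticoids by inactivating them, an enzyme known mainly from kidney, colon and placenta.

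Every level given here is the background-corrected Cy3 signal of a probe divided by the 75th percentile of the 55681 probes of its array other than controls. This percentile lay between 206.0 and 248.5 intensity units, and between 54.7% and 58.5% of all probes were well above background, the scanner software's flag for a usable signal. No spot was saturated. A level compares 1 probe across arrays and does not compare genes with each other. The label heart was borne out by the 7 cardiomyocyte markers examined (Myh6, Actc1, Tnnt2, Tnni3, Myl2, Ryr2 and Pln), all well above background on all 4 arrays. All 5 hypertrophy genes examined were over 2-fold higher after TAC at both times, with a median log2 change of 1.84 at 2 weeks and 2.65 at 8 weeks. Over 2-fold higher were 3.20% of all probes well above background on the brighter array at 2 weeks and 3.17% at 8 weeks. The hypertrophy genes were chosen with earlier results of these data known, so their count is a description only. Because the RNA came from bulk tissue, fewer cells of a type and less RNA per cell cannot be told apart in any of the values.

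Of the 9 genes, 6 were well above background on all 4 arrays, Agt, Ren1, Ace, Agtr1a, Mas1 and Nr3c2. The other 3, Agtr1b, Agtr2 and Hsd11b2, were not well above background on any array. By a rule of over 2-fold with a signal well above background on the brighter array, 0 of the 6 passed upward at either time, compared with 3.20% of all probes that could be called at 2 weeks and 3.17% at 8 weeks. Downward, 0 passed at 2 weeks, where 1.69% of probes did, and at 8 weeks 1 passed, Mas1, where 2.97% of probes did. Mas1 no longer passed 2-fold without scaling between arrays, with another background correction (normexp) or with its probes averaged. With a threshold of 1.5-fold and both arrays well above background, Mas1 was down at 2 weeks, and at 8 weeks Ace was up and Mas1 and Nr3c2 were down. The corresponding background was 3.64% up and 3.13% down at 2 weeks, and 4.49% up and 4.85% down at 8 weeks. Below, "rose" and "fell" are used of changes over 1.5-fold by this rule. The median log2 change of the 6 measured genes was 0.15 at 2 weeks and -0.38 at 8 weeks, where that of all probes measured on both arrays was -0.02 and -0.04. The changes of single genes ran from -0.83 to 0.40 at 2 weeks and from -1.14 to 0.70 at 8 weeks, so the medians summarize genes that went in opposite directions.

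**Figure D1:**
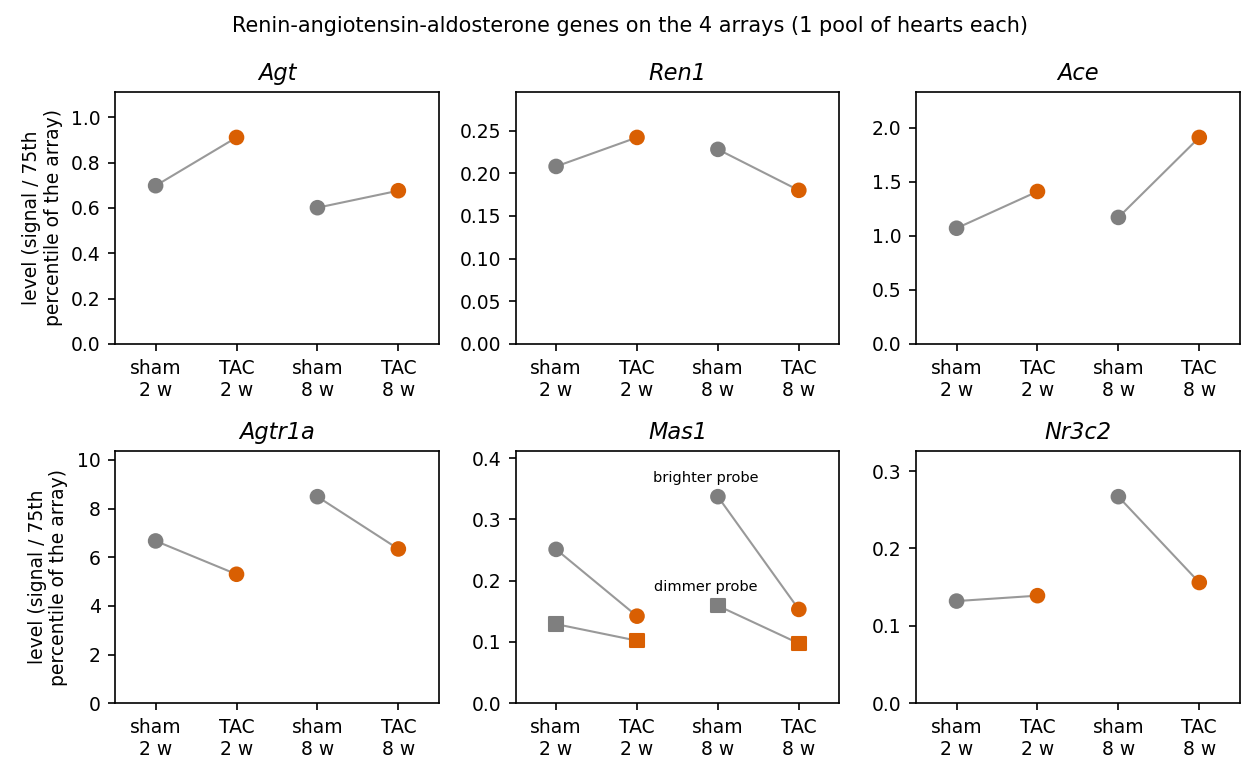
Level (signal over the 75th percentile of the array, linear axis from 0) of the 6 measured genes on the 4 arrays, gray for sham and orange for TAC, with a line joining the pools of the same time and squares for the dimmer Mas1 probe. Ace was higher and Agtr1a and Mas1 were lower after TAC at both times, while Nr3c2 stood out only on the 8-week sham array, at 0.267 against 0.132 to 0.156 elsewhere.

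The precision of a single spot was read from probes spotted several times on the same array. The log2 ratio of 2 such spots had an SD of 0.29 where the level was under 0.25, of 0.16 between 0.25 and 1, and of 0.09 above 1. These SDs cover the measurement within an array only, not the spread between hybridizations or mice. The 2 sham pools, which differ in time after surgery and age but not in TAC, differed by over 1.5-fold upward at 8 weeks in 1.74% of probes measured on both and downward in 1.81%. Of the 6 genes, Nr3c2 was among these, upward, and none was downward.

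Agt (NM_007428) encodes angiotensinogen, the precursor of all angiotensin peptides, which is made mainly by the liver and in small amounts by the heart. Its level was 0.698 in sham and 0.911 in TAC hearts at 2 weeks, and 0.601 in sham and 0.676 in TAC hearts at 8 weeks. Both TAC pools were above the sham pool of the same time, but the 8-week TAC pool was below the 2-week sham pool, so sham and TAC levels overlapped. TAC over sham was 1.31-fold at 2 weeks (log2 0.38) and 1.12-fold at 8 weeks (log2 0.17). The SD of 2 spots at this level was 0.16, which the 2-week value exceeded and the 8-week value about equaled. Other processing gave values between 0.25 and 0.39 at 2 weeks and between 0.10 and 0.34 at 8 weeks. A change upward of at least this size was found in 8.88% of measured probes at 2 weeks and in 22.1% at 8 weeks, and the sham pools differed by -0.21.

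Ren1 (NM_031192) encodes renin, the protease that starts the cascade and is known mainly from the juxtaglomerular cells of the kidney. Its probe read 0.208 in sham and 0.242 in TAC hearts at 2 weeks, and 0.228 in sham and 0.180 in TAC hearts at 8 weeks. The sham pools lay between the TAC pools, so no common direction was seen. The 2-week ratio was 1.16-fold (log2 0.22) and the 8-week ratio 0.789 (log2 -0.34), beside an SD of 2 spots of 0.29, and the 2-week value went down to 0.07 under other processing. The array also has a probe named for Ren2, a near-identical duplicate that C57BL/6 mice do not carry and that the RefSeq annotation places only on a scaffold outside the main chromosomes. This probe, looked at after the Ren1 values were seen, was nevertheless well above background on all 4 arrays, with 0.299 in sham and 0.365 in TAC hearts at 2 weeks, and 0.321 and 0.320 at 8 weeks. How far the renin probes share signal could not be worked out here, so the Ren1 level is uncertain.

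Ace encodes angiotensin-converting enzyme, which makes angiotensin II and also breaks down bradykinin, and which is abundant on endothelium. Its level was 1.07 in sham and 1.41 in TAC hearts at 2 weeks, and 1.17 in sham and 1.91 in TAC hearts at 8 weeks. Both TAC pools were above both sham pools, and the order was sham at 2 weeks, sham at 8 weeks, TAC at 2 weeks, TAC at 8 weeks. TAC over sham was 1.32-fold at 2 weeks (log2 0.40), short of the threshold, and 1.63-fold at 8 weeks (log2 0.70). Both were more than the SD of 2 spots of 0.09 and than the log2 difference of 0.13 between the sham pools. Upward changes of at least these sizes were found in 8.23% of measured probes at 2 weeks and in 3.15% at 8 weeks. Ace stayed over 1.5-fold at 8 weeks under each of the 7 alternatives computed per gene, with log2 values between 0.61 and 0.87. Averaging of probes could not move it, as Ace has a single probe. Nor could the table the authors deposited, which is the same signal times a constant per array. Keeping outlier spots also left it at 0.70. The 2-week Ace value went down to 0.23 with normexp. This background correction models spot signal and local background and adds an offset of 50 to each signal. All 5 endothelial markers (Pecam1, Cdh5, Kdr, Tie1 and Tek) were measured on all arrays, and none passed 1.5-fold. Among all measured probes, 3.64% rose and 3.13% fell at 2 weeks, and 4.49% rose and 4.85% fell at 8 weeks. For 5 genes, a count of none is near these shares. The median log2 change of the endothelial markers was 0.23 at 2 weeks and -0.06 at 8 weeks. Their summed level was 56.7, 58.0, 49.6 and 47.8 on the arrays of 2-week sham, 2-week TAC, 8-week sham and 8-week TAC, the order used for all summed levels. Macrophage markers, 6 of 6 measured, were all higher after TAC at both times, with medians of 0.37 and 0.36 and summed levels of 37.4 and 38.9 in the sham pools, 46.2 in 2-week TAC hearts and more in 8-week TAC hearts. Their part in the Ace value was not tested.

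The Ace probe is named by transcript NM_009598, which bears on what it can report. In RefSeq, on GRCm38.p6, this transcript starts 7241 bases inside the gene, at the start known for the short form of testis, whereas the full-length form starts upstream. Of its 3148 bases, 2933 (93.2%) also lie in exons of the full-length transcript NM_207624, so its name does not tell the forms apart, and the sequence of the probe was not used here. The 250 bases before each start are given to set the alternative starts side by side. The sequences are RefSeq's, 5′ to 3′ on the strand of the gene, on GRCm38.p6, and capitals mark matches on either strand. The letters searched were TATAAA for the core promoter element bound by the TATA-binding protein, then CCAAT for the element bound by nuclear factor Y, and also GGGCGG for the element bound by Sp1.
Ace, upstream start, chr11:105967698-105967947, plus strand: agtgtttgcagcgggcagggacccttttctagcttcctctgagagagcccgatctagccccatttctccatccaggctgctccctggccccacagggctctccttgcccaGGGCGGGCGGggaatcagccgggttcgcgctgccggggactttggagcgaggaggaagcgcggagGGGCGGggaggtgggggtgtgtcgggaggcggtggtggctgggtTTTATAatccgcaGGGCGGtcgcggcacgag
Ace, internal start, chr11:105974939-105975188, plus strand: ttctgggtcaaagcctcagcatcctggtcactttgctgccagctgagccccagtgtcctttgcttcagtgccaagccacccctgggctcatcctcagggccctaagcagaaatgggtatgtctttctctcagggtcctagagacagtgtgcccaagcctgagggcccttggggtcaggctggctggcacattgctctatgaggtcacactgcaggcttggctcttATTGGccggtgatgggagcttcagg
The upstream window, with 67.2% G and C, holds 4 GGGCGG matches, of which the 2 farthest from the start overlap, and a TATAAA match on the opposite strand from -31 to -26. The internal window, with 58.0% G and C, holds neither and has 1 CCAAT match on the opposite strand from -25 to -21.

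Agtr1a (NM_177322) encodes the type 1 angiotensin II receptor that predominates in the mouse heart and vessels. Its level was 6.67 in sham and 5.30 in TAC hearts at 2 weeks, and 8.49 in sham and 6.34 in TAC hearts at 8 weeks. Both TAC pools were below both sham pools, with 8-week TAC close under 2-week sham. TAC over sham was 0.794 at 2 weeks (log2 -0.33) and 0.746 at 8 weeks (log2 -0.42), neither past 1.5-fold. Downward changes of at least these sizes were found in 9.89% and 9.68% of measured probes, and the sham pools differed by 0.35 on the log2 scale, which is as much as the change after TAC at 2 weeks. Both changes were larger than the SD of 2 spots, 0.09, and without scaling between arrays the 8-week value was -0.26. Cardiomyocyte markers, 7 of 7 measured, had a median log2 change of -0.19 at each time. Of the 7, Ryr2 alone passed 1.5-fold, downward at 8 weeks, when 4.85% of all measured probes did. The 7 markers had summed levels of 7092, 6638, 6771 and 5968. Their part in the Agtr1a value was not tested.

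The other angiotensin II receptors gave no usable signal. Agtr1b (NM_175086), the second type 1 receptor gene of mice, known mainly from adrenal and brain, had levels between 0.00983 and 0.0125. Agtr2 (NM_007429), the type 2 receptor, known mainly from fetal tissue, lay between 0.0111 and 0.0144. For comparison, the dimmest probe well above background had a level between 0.0469 and 0.0600, depending on the array. No fold is given for probes below background on both arrays, and such a level says only that the transcript was not detectable with this probe. The 1 exception is the median over all 9 genes in the last section, which fell on Agtr1b.

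Mas1 (NM_008552) encodes the Mas receptor of the counteracting arm. Its brighter probe read 0.251 in sham and 0.142 in TAC hearts at 2 weeks, and 0.337 in sham and 0.153 in TAC hearts at 8 weeks. The dimmer probe read 0.129 in sham and 0.102 in TAC hearts at 2 weeks, and 0.159 in sham and 0.0975 in TAC hearts at 8 weeks. With either probe both TAC pools were below both sham pools. By the brighter probe Mas1 fell to 0.564 of sham at 2 weeks (log2 -0.83) and to 0.454 at 8 weeks (log2 -1.14), and downward changes of at least this size were found in 1.21% and 0.658% of measured probes. By the dimmer probe the ratios were 0.793 (log2 -0.33) and 0.614 (log2 -0.70), so the direction held at both times but only the 8-week value passed 1.5-fold. The SD of 2 spots was 0.29 at these low levels, and the sham pools differed by 0.43 with the brighter and 0.30 with the dimmer probe. Normexp brought the brighter probe's values to -0.37 and -0.57, both short of 1.5-fold. Its offset of 50 makes changes of dim probes smaller, and this probe's intensities lay between 29.2 and 74.6. The 1.5-fold threshold is therefore harder to pass with normexp.

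The 250 bases before the Mas1 start, with 45.2% G and C, are shown for contrast with the Ace windows, capitals as before.
Mas1, chr17:12868144-12868393, minus strand: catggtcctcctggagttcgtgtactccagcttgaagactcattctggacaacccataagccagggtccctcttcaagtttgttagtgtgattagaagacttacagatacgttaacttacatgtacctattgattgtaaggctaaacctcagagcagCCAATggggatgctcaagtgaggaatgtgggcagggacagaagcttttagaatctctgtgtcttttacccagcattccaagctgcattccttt
They hold 1 CCAAT match, from -93 to -89, and neither TATAAA nor GGGCGG.

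Nr3c2 (NM_001083906) encodes the mineralocorticoid receptor, a steroid-activated transcription factor that binds aldosterone and, where Hsd11b2 is low, glucocorticoids. Its level was 0.132 in sham and 0.139 in TAC hearts at 2 weeks, and 0.267 in sham and 0.156 in TAC hearts at 8 weeks. The 8-week sham pool stood apart, and the other 3 pools differed by little. TAC over sham was 1.06-fold at 2 weeks (log2 0.08), and Nr3c2 fell to 0.587 of sham at 8 weeks (log2 -0.77), a fall matched or exceeded by 2.25% of measured probes. The sham pools themselves differed by 2.03-fold (log2 1.02), a rise matched or exceeded by 0.387% of probes, whereas the TAC pools differed by 1.12-fold. The 8-week fall therefore rests on the 8-week sham pool. With normexp, whose offset makes changes of dim probes smaller, it was -0.45, short of 1.5-fold. The sham difference was 0.47 at its lowest under other processing. Of the 4 atrial markers (Myl7, Myl4, Sln and Bmp10), 3 were highest on that array. Myl7 read 0.170 there and between 0.0303 and 0.0778 on the other arrays, and Sln read 0.120 there and between 0.0354 and 0.0929 elsewhere, each lowest on the 8-week TAC array. Myl4, the 1 of the 4 measured on all arrays, read 3.85 there and between 2.69 and 3.08 elsewhere. Bmp10 did not share this order, with 0.0641 in 2-week TAC hearts, its 1 array well above background, and 0.0528 in 8-week sham hearts. The summed level of the 4 was 3.26, 3.30, 4.19 and 2.79. Agtr1a and Mas1 were also highest in 8-week sham hearts. The part of atrial tissue in the 8-week values of these 3 genes was not tested.

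Hsd11b2 (NM_008289), the enzyme that guards the receptor in the kidney, read between 0.0103 and 0.0131 and was not well above background on any array. On the glucocorticoid side, Hsd11b1, which regenerates active glucocorticoid, fell from 4.42 to 2.84 at 2 weeks (log2 -0.64) and from 5.13 to 3.31 at 8 weeks (log2 -0.63), and the sham pools differed by 0.21. Nr3c1, the glucocorticoid receptor, had log2 changes of 0.03 and 0.09, and H6pd, which supplies Hsd11b1 with its cofactor, of -0.01 and -0.11. The Nr3c2 window is given because it resembles the upstream Ace window in composition, with 68.4% G and C.
Nr3c2, chr8:76902080-76902329, plus strand: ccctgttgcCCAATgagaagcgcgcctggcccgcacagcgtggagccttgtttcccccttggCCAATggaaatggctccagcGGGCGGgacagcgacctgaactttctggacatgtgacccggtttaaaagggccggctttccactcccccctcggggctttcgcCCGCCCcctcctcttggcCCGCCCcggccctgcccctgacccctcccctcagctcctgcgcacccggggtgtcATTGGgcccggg
It holds 3 CCAAT and 3 GGGCGG matches and no TATAAA.

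RefSeq windows of this kind were found for 7 of the 9 genes, 8 windows in all, without Agtr1a and Hsd11b2. TATAAA was in the windows of Agt, Ren1, Agtr1b and the upstream Ace start, GGGCGG in those of the upstream Ace start and Nr3c2. Of 32851 windows in the table, 12.4% hold TATAAA, 33.8% CCAAT and 32.7% GGGCGG on either strand. None of the 8 windows held AGAACA, a core of the sites bound by steroid receptors, GCGGGGGCG, bound by Egr1, or a CArG box, bound by serum response factor, which were in 16.1%, 2.57% and 1.47% of all windows. A match describes letters only, and its absence says only that these letters are not in the window.

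**Figure D2:**
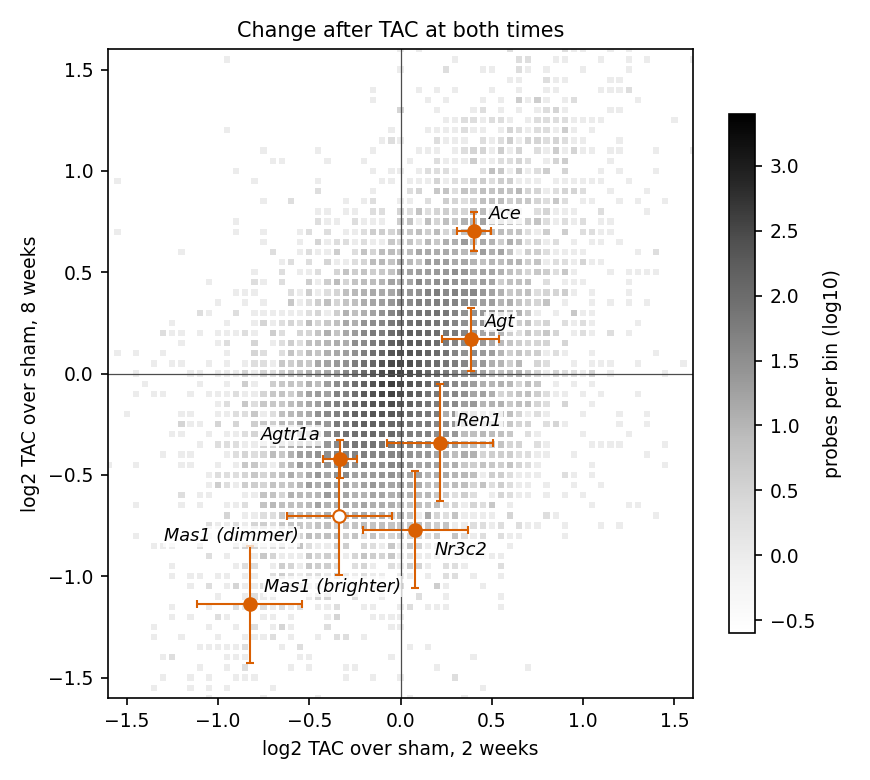
Log2 TAC over sham at 2 weeks (horizontal) against 8 weeks (vertical) for the measured genes in orange, with error bars of 1 SD of the log2 ratio of 2 spots at that level, over the count per bin of all probes well above background on all 4 arrays in gray (log10 scale, bins of 0.05). Mas1 lay lower left with both probes (the dimmer one open), Ace upper right, and Nr3c2 and Ren1 below 0 at 8 weeks only.

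For the 3 genes whose log2 level spanned over 0.7, the genes with the most similar profile were sought by the Euclidean distance between log2 levels centered on the mean of the 4 arrays, among 18816 named probes. The nearest to Ace were Cracdl at 0.01, Arhgap9 at 0.04 and Klhl40 at 0.04. The nearest to Mas1 were Hnmt at 0.04, Pdzrn4 at 0.08 and Plxnb3 at 0.09, and to Nr3c2 they were Kctd3 at 0.09, Micu3 at 0.11 and Pappa at 0.14. With 4 arrays such a likeness is a description of these pools.

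Of 17 other enzymes and accessory receptors of the angiotensin peptides, 15 were measured on all arrays. Of these, 2 rose at 2 weeks, none rose at 8 weeks and none fell at either time. Among all measured probes, 3.64% rose and 3.13% fell at 2 weeks, and 4.49% rose and 4.85% fell at 8 weeks. For 15 genes, a count of none is near these shares. The median log2 change of the 15 genes was 0.06 and 0.05 at the successive times. Prcp, a carboxypeptidase that shortens angiotensin II, rose from 1.93 to 3.31 at 2 weeks (log2 0.78) and read 2.19 and 2.52 at 8 weeks (log2 0.21). Cma1, a mast cell chymase gene, rose from 0.116 to 0.181 at 2 weeks (log2 0.64) and read 0.106 and 0.107 at 8 weeks. Mast cell markers had a median log2 change of 0.29 at 2 weeks and of -0.03 at 8 weeks over the 5 of 7 that were measured, and their summed levels were 2.44, 3.16, 2.54 and 2.79. Cpa3, a mast cell protease among them, had changes of 0.94 and -0.51. Hdc, which makes histamine, was at 0.57 at 2 weeks and rose by 0.80 at 8 weeks, when Cma1 was at 0.02. Ms4a2 and Fcer1a were not well above background on any array. The part of mast cells in the Cma1 value was not tested. Arap1, an adaptor that affects trafficking of the type 1 receptor, had changes of 0.33 and 0.51.

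Genes that carry the signal of the type 1 receptor were measured in full, 18 of 18, with median changes of 0.06 and 0.09. At 2 weeks none rose and 1 fell, where 3.64% of all measured probes rose and 3.13% fell. At 8 weeks 1 rose and 1 fell, where 4.49% rose and 4.85% fell. For 18 genes these counts are near the shares. The gene that fell both times was Rgs2, which shuts off the G protein of this receptor, from 34.1 to 20.9 at 2 weeks (log2 -0.71) and from 31.2 to 16.6 at 8 weeks (log2 -0.91), while the sham pools differed by -0.13. Prkcd, a protein kinase C isoform, read 0.658 in sham and 0.928 in TAC hearts at 2 weeks (log2 0.50), and at 8 weeks it rose from 0.960 to 1.45 (log2 0.59). Its sham pools differed by 0.55, so sham and TAC levels overlapped. Gnaq, the G protein subunit to which the receptor couples, had changes of 0.13 and 0.16.

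**Figure D3:**
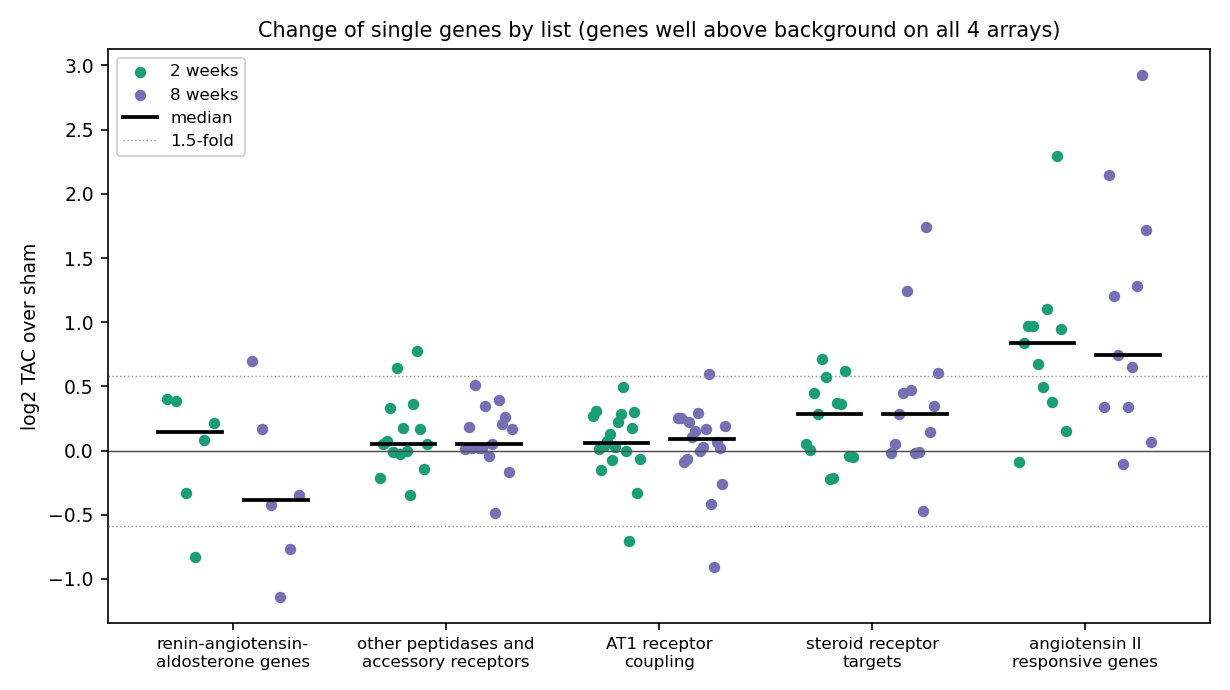
Log2 TAC over sham of single genes well above background on all 4 arrays, by list, at 2 weeks (green) and 8 weeks (purple), with the median of each as a black bar and dotted lines at 1.5-fold. The angiotensin II responsive genes had the highest medians of the 5 lists drawn, 0.84 and 0.75, and the coupling genes and other peptidases near 0, with medians between 0.05 and 0.09. The lists were chosen with earlier results of these data known, so this order is a description only. The hypertrophy genes, with medians of 1.84 and 2.65, were not drawn.

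Genes known to respond to the receptors, which other signals also control, were examined as lists. These lists were chosen with earlier results of these data known. Of 15 targets of the mineralocorticoid and glucocorticoid receptors, 13 were measured, with median changes of 0.29 at 2 weeks and 0.29 at 8 weeks. Of these, 2 rose at 2 weeks, 3 rose at 8 weeks and none fell. Among all measured probes, 3.64% rose and 3.13% fell at 2 weeks, and 4.49% rose and 4.85% fell at 8 weeks. Fkbp5, a chaperone partner of steroid receptors, rose from 3.25 to 5.34 at 2 weeks (log2 0.71) and from 3.01 to 7.10 at 8 weeks (log2 1.24). Sgk1, the kinase through which aldosterone raises sodium uptake, rose from 8.07 to 12.4 at 2 weeks (log2 0.62) and had a change of 0.14 at 8 weeks. Zbtb16, a transcription factor, rose at 8 weeks (log2 0.60) with a sham difference of -0.54, and its 8-week TAC level of 16.5 was close to its 2-week sham level of 15.7. Lcn2, a lipocalin induced through the mineralocorticoid receptor, was at 0.58 and 0.47, short of the threshold. Per1 and Tsc22d3, which glucocorticoids induce, did not pass the threshold, with values from -0.21 to 0.35. The sodium channel subunits Scnn1b and Scnn1g were not well above background on any array. Scnn1a, another subunit of this channel, was measured on all arrays, with changes of 0.37 and -0.47 and a sham difference of 0.84.

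Of 14 genes known to respond to angiotensin II in the heart, 11 were measured on all arrays. At each time 7 rose and none fell, and the medians were 0.84 and 0.75. Of all measured probes, 3.64% rose and 3.13% fell at 2 weeks, and 4.49% rose and 4.85% fell at 8 weeks. The 7 were not the same genes at both times. Cybb rose at 2 weeks only, with log2 changes of 0.68 and -0.11, and Fos at 8 weeks only. Postn, a matrix protein of activated fibroblasts, rose from 1.21 to 5.95 at 2 weeks (log2 2.29) and from 1.25 to 9.50 at 8 weeks (log2 2.92). Ccn2, a matricellular growth factor, rose by 0.84 and 2.15 on the log2 scale, and Rcan1, an inhibitor and target of calcineurin, by 0.95 and 1.72. The fibrillar collagen genes Col1a1 and Col3a1 each rose by 0.97 at 2 weeks and by 1.20 and 0.75 at 8 weeks, and Fn1, the fibronectin gene, rose by 1.10 and 0.65. Fos, an early response transcription factor, was at 0.38 at 2 weeks and rose by 1.28 at 8 weeks, with a sham difference of -0.47. Tgfb1, a profibrotic cytokine, had changes of 0.15 and 0.07. Several list members are themselves matrix genes of fibroblasts. Fibroblast markers, 6 of 6 measured, had medians of 0.25 and 0.34 and summed levels of 188, 243, 214 and 292. Their changes ran from -0.01 to 0.90 at 2 weeks and from -0.55 to 0.99 at 8 weeks, when Tcf21 and Dpt were lower after TAC. Most of each sum came from Dcn, at 143, 162, 167 and 203. The part of fibroblast number in the values of the angiotensin II responsive genes was not tested.

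Local synthesis of aldosterone and the kinin system were mostly below the background limit. Of 6 genes of aldosterone synthesis, 2 were measured and 4 were not well above background on any array, among them Cyp11b2, the aldosterone synthase. Star, which brings cholesterol into mitochondria, read 0.175 and 0.216 at 2 weeks (log2 0.30) and rose from 0.132 to 0.215 at 8 weeks (log2 0.70), with a sham difference of -0.41. A rise of at least the 8-week size was found in 3.16% of measured probes, and the SD of 2 spots at this level was 0.29. The TAC pools read nearly alike, so the larger 8-week ratio of Star rests on the lower 8-week sham pool. Cyp21a1, a steroid hydroxylase, had changes of 0.10 and -0.11. Of 4 kinin genes, 1 was measured on all arrays, Kng1, the kininogen gene, with changes of 0.37 and -0.06, and both bradykinin receptor genes, Bdkrb1 and Bdkrb2, were not well above background on any array.

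**Figure D4:**
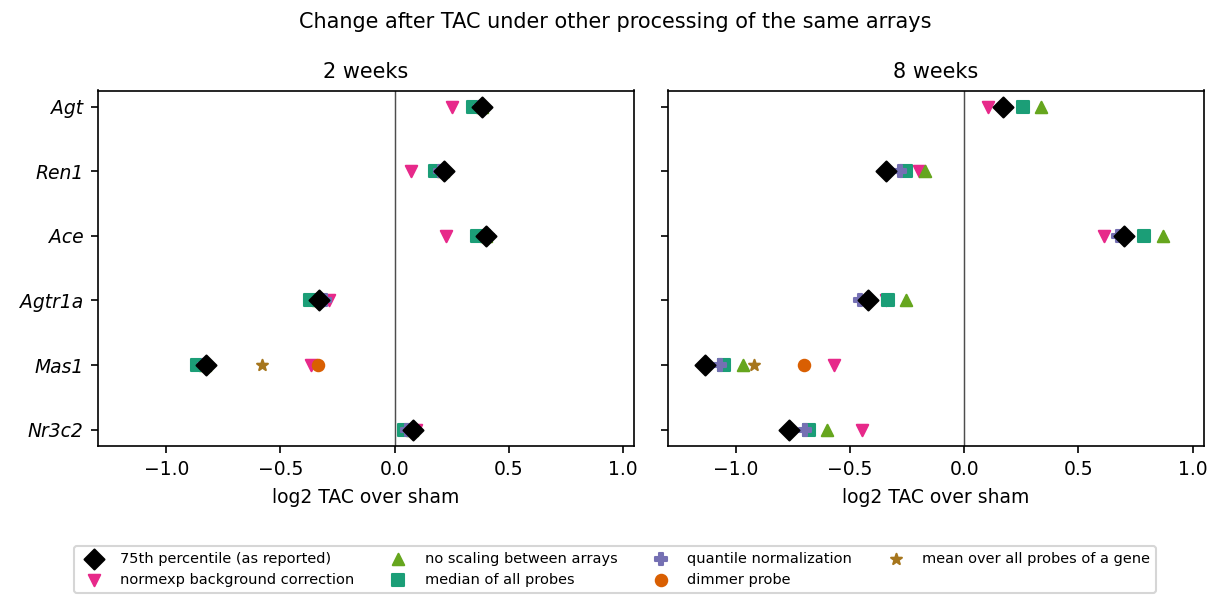
Log2 TAC over sham of the 6 measured genes at 2 weeks (left) and 8 weeks (right) under the reported processing (black diamonds) and other processing of the same arrays (colored marks). The dimmer probe and the mean over both probes apply to Mas1 alone. Every gene kept its sign under the settings drawn, and normexp moved Mas1 from -0.83 to -0.37 at 2 weeks and from -1.14 to -0.57 at 8 weeks.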

How the data were processed

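Total RNA of sham and TAC hearts was labeled with Cy3 and hybridized to 4 one-color Agilent mouse arrays, 1 pool of several mice per condition, all on 1 slide in 1 scan, which leaves no batch of either kind to compare. The authors deposited Feature Extraction files (version 10.7.3.1 per the file headers, 9.1 in the submitters' processing notes, probe design on mm9), whose processed signal is an intensity per spot after background correction, without scaling between arrays. They also deposited a table that equals these intensities times a constant per array, 3.52 to 4.35, whose origin is not given in the sources used here. A few flags per spot (well above background, saturated, outlier) were used as deposited.

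Outlier spots were left out, log2 signals were averaged per probe, and the array's 75th percentile over probes other than controls was subtracted. Probes were named by unversioned transcript through RefSeq and GENCODE tables, which named 29358 of 55681 probes. The probe with the highest mean level stood for a gene. With 1 array per group no test across genes was made. The members and gene lists were chosen with earlier results of these data known. Genes outside the 9 were named where they were measured on all 4 arrays and changed the same way at both times with a log2 change over 0.5 at either, at most 8 per list, and otherwise as the 2 brightest of a list. Genes named beside these were chosen after their values were seen, and for marker lists mainly the summary is given. Values of some single list genes are not reported here. Precision is limited by the number of arrays. The calling step was tested on simulated data. Alternatives were the median, quantile normalization, no scaling, normexp (offset 50, median spot signal and local background), the deposited table, all probes of a gene averaged, outlier spots kept, other filters and a 1.5-fold threshold, with limma 3.58.1 in R 4.3.3, Python 3.11.15, numpy 2.4.6 and pandas 2.3.3.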

Additional observations from a re-analysis of the deposited data

How the results depend on the processing

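No paired analysis was possible because each condition has 1 array. Among 142 values recomputed under alternatives, 121 moved by less than the SD of 2 spots or, for counts, by less than 1.5 times, and 21 moved more. The 121 include values that could hardly move. These are values from the deposited table, which is the same signal times a constant per array, and averages for genes with a single probe. The count is therefore no measure of how firm the values are. No measured gene changed sign. The number of genes down over 2-fold at 8 weeks went from 1 to 0 without scaling, with normexp and with all probes of a gene averaged, and to 2 at 1.5-fold. At 1.5-fold 1 gene was up at 8 weeks and 1 down at 2 weeks. The median over all 9 genes fell on Agtr1b at both times, a probe not well above background, and so describes none of the measured genes. It moved from -0.32 to 0.0007 with quantile normalization, 0.0081 with normexp and 0.15 over the measured genes at 2 weeks, and from -0.21 to -0.0112 with quantile normalization, -0.0374 without scaling and -0.38 over the measured genes at 8 weeks. Normexp gave 0.23 for Ace and -0.37 for Mas1 at 2 weeks, and -0.57 for Mas1 and -0.45 for Nr3c2 at 8 weeks. Without scaling, which moved the median of measured probes by 0.17 at 8 weeks, the 8-week values were 0.34 for Agt, 0.87 for Ace and -0.26 for Agtr1a. The dimmer Mas1 probe, an alternative chosen after seeing the data, gave -0.33 at 2 weeks and -0.70 at 8 weeks. Over all probes, 1053 were up and 557 down at 2 weeks and 1050 and 985 at 8 weeks, compared with 103 and 98 and 233 and 137 with normexp and 1368 and 749 without scaling at 8 weeks. The offset in normexp makes changes of dim probes smaller. Why the values moved was not otherwise tested. Signal close to background limits Mas1, Nr3c2 and Ren1 most.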
